A study of Oncorhynchus mykiss with 8 samples.

Results

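The quantity described here is the difference between 2 hatchery lots of rainbow trout (Oncorhynchus mykiss) in how liver gene expression varied with body size. For each array probe, small fish were set against large fish as a log2 ratio, and the 2 arrays of a pool pair were averaged. The mean of the 2 pool pairs of the Dec lot was then subtracted from the mean of the 2 pool pairs of the Sept lot. A difference above 0 therefore means that a transcript stood relatively higher in small fish of the Sept lot than in small fish of the Dec lot. All 8 arrays entered the contrast, and its members were the 33291 probes, of 43603 on the array, with a value on every array. Of these, 1401 had a gene name. Names came from platform symbols and from the liver and muscle tables that accompany the study.

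Liver mRNA of small and large fish was hybridised against each other on 2-colour oligonucleotide arrays, with one size class in Alexa Fluor 647 and the other in Alexa Fluor 555. Each pool held mRNA of 5 fish, one from each of 5 families. Each pool pair was hybridised a second time with the dyes exchanged, which gives 4 arrays and 2 pool pairs in each lot. The 2 arrays of a pool pair share their RNA and count as 1 replicate.

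All fish were untreated, immature juveniles of the Lyndon strain, reared at one station on a commercial ration (ad libitum, by the labels), and of about the same age when sampled. The study itself describes rations adjusted to fish weight and water temperature, and a fast before weighing. The Sept lot came from eggs fertilised in September and was sampled as day length fell towards the winter solstice. The Dec lot was fertilised in December and sampled in late winter as day length rose. Each lot descended from 1 male and 5 females, with different parents in the 2 lots, and both sexes were mixed in the pools. By the weights in the study, large and small fish of the Dec pools were both heavier than those of the Sept pools. Relative to large fish, small fish were lighter in the Sept lot. Season, photoperiod, parents, sampling day and the size contrast itself therefore changed together and cannot be told apart here. In each lot, one pool pair set the largest fish of each family against the next to smallest, and the other the second largest against the smallest. The labels number the pool pairs 1 and 2 without saying which is which. The files give ratios and no signal levels, so the level of liver-defining transcripts could not be examined.

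The liver supplies the blood plasma with albumin, clotting factors, complement and lipid carriers, and its output of binding proteins for insulin-like growth factors ties it to growth. In temperate salmonids, feeding, growth and lipid storage follow day length through the year. Fish red blood cells are nucleated and keep hemoglobin transcripts, so a piece of liver also carries the RNA of the blood in it.

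Few probes separated the lots, and no probe did so after adjustment for the number tested. In the limma fit of 2 Sept against 2 Dec pool pairs, 1149 of 33291 probes, or 3.45%, had an unadjusted p of 0.05 or less, and each of them also had a difference of at least 1.2-fold. These thresholds are those of the study's methods, and probes meeting them are called past the thresholds below. A p of 0.05 would be met by 5% of probes if none differed. The smallest adjusted p was 1.00, and no probe had an adjusted p under 0.05. The differences past the thresholds ran in both directions, with 644 probes (1.93%) higher and 505 (1.52%) lower in the Sept lot. Their absolute size had a median of 0.69 on the log2 scale and was never under 0.43. The 4 Sept arrays lay entirely above or entirely below the 4 Dec arrays for 624 probes (1.87%). In 961 of the 1149 probes past the thresholds the lot means had opposite signs, with the Sept mean above 0 and the Dec mean below 0 for 535 and the reverse for 426. These probes were selected for a difference between lots, and most lot means lie near 0, so the selection itself favours opposite signs. The share over all probes is not given here, and the count is not evidence that size effects reversed. An exact permutation test of 2 against 2 pool pairs cannot give a two-sided p below 0.333, so single probes rest on the spread that limma pools across probes.

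The count of probes past the thresholds depended on single pool pairs. It was 593 without Sept pool pair 2, 1021 without Sept pool pair 1, 3104 without Dec pool pair 1 and 3637 without Dec pool pair 2. Of the 1149 probes, 280, 366, 716 and 709 respectively stayed past the thresholds in the same direction, and the lone remaining pool pair of the reduced lot is assumed in these fits to vary like the others.

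**Figure D1:**
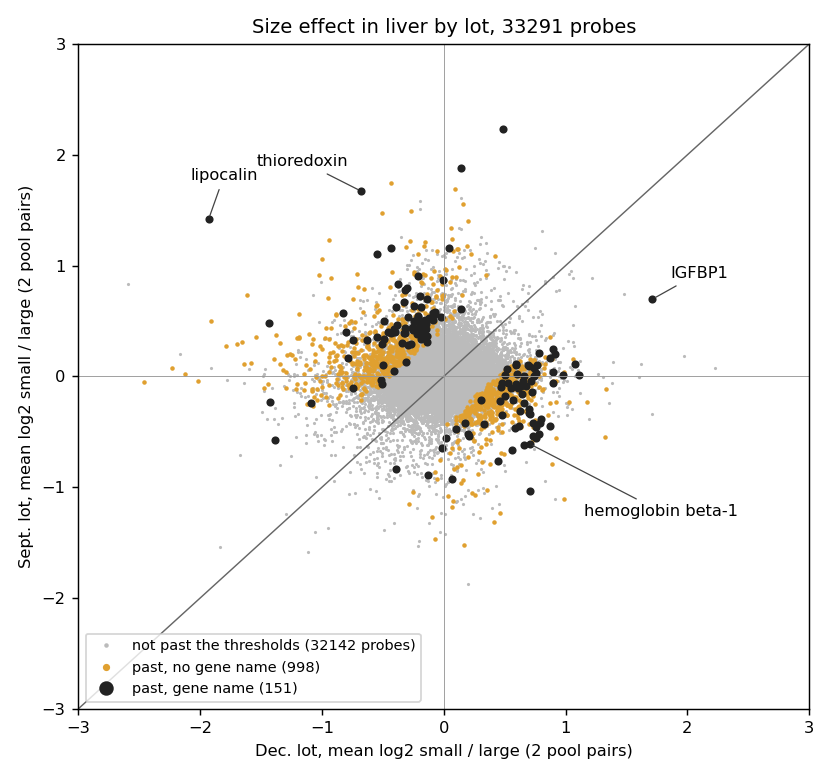
Mean log2 ratio of small over large fish in the Sept lot (vertical axis) against the Dec lot (horizontal axis) for 33291 probes, each point the mean of 2 pool pairs; the diagonal marks equal size effects. Grey points were not past the thresholds, orange points were past them without a gene name (998) and black points had a gene name (151), and most of the coloured points lie in the upper left and lower right, where the lot means have opposite signs. Selection for a difference between lots favours those corners.

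Across all probes, the difference measured in one set of fish did not recur in the other. The contrast of Sept pool pair 1 with Dec pool pair 1 had a Pearson correlation of −0.07 with the contrast of Sept pool pair 2 with Dec pool pair 2 over 33291 probes, and the other way of matching the pool pairs gave −0.10. These contrasts share no RNA, but probes are not independent replicates and the values are given as a description. The difference over the 4 arrays with small fish in Alexa Fluor 647 correlated at 0.05 with that over the 4 arrays with the dyes exchanged, and 49% of probes had the same sign in both. Within a pool pair, the 2 arrays correlated between −0.24 and 0.08.

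**Figure D2:**
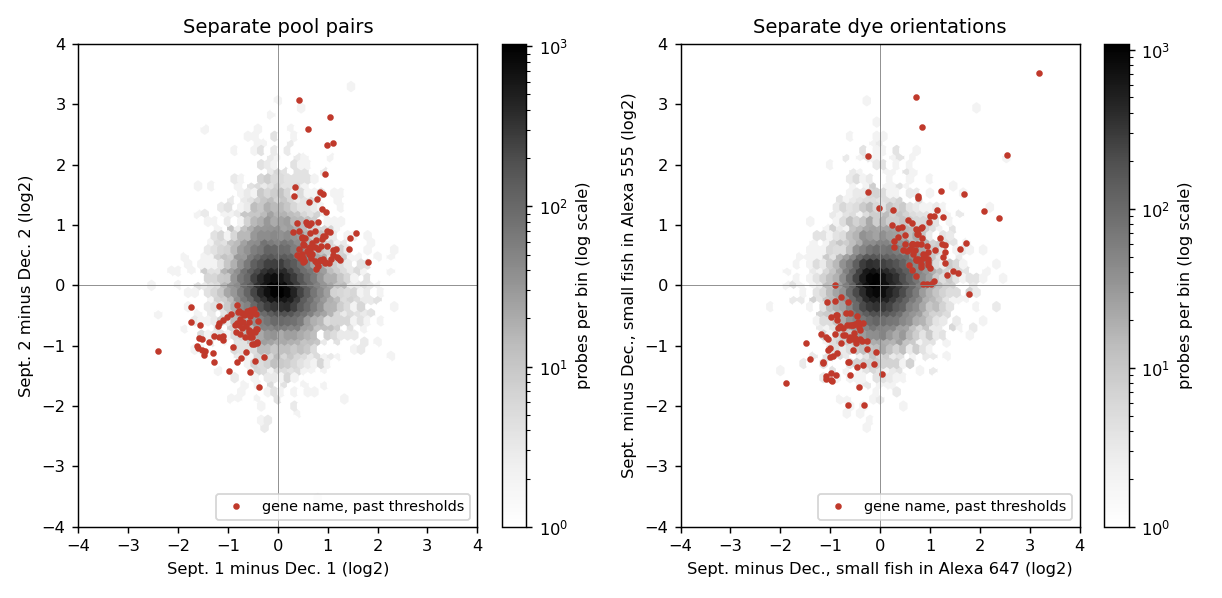
Left, the log2 difference of Sept pool pair 1 minus Dec pool pair 1 (horizontal) against Sept pool pair 2 minus Dec pool pair 2 (vertical); right, the difference over arrays with small fish in Alexa Fluor 647 against that over arrays with small fish in Alexa Fluor 555. Grey shading counts probes per bin on a log scale, 9 probes lie beyond the axis limits of 4, and red points are the 151 named probes past the thresholds, while the grey cloud has correlations of −0.07 and 0.05.

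The dye orientation left a visible mark on the arrays. Arrays of different pool pairs with the same orientation correlated between 0.07 and 0.46, and those with opposite orientation between −0.37 and −0.03. The median of all probes in a pool pair lay between −0.02 and 0.02, and the median difference between lots was −0.01.

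Named probes passed the thresholds more often than the array as a whole, with 151 of 1401, or 10.8% (82 higher, 5.85%, and 69 lower, 4.93%). That share has to be read with how names were given. The study named liver probes that it had called different in size on these same arrays in at least 1 lot, which is close to selecting a difference between lots. Of the 662 tested probes in its liver tables, 220 were past the thresholds (33.2%), against 929 of 32629 probes outside them (2.85%). Named probes outside the liver tables, which took their names from platform symbols or from muscle arrays, passed in 19 of 1029 cases (1.85%). The genes below are thus a description of those that differed, and their number is not evidence of a difference.

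For array values, the order in each lot is pool pair 1 and then pool pair 2, each with the array holding small fish in Alexa Fluor 647 first. All array and pool pair values are log2 small over large, and differences are Sept minus Dec with the SE of the limma fit for 2 pool pairs per lot.

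The largest difference past the thresholds among named probes belonged to lipocalin, a secreted carrier of small hydrophobic molecules. Lipocalin (A_05_P414837) read 0.31, 1.65, 1.78 and 1.94 on the Sept arrays and −1.43, −0.73, −2.84 and −2.72 on the Dec arrays. All 4 Sept arrays were above 0 and all 4 Dec arrays below it, so small fish stood above large fish in one lot and below them in the other. Over all probes, 0.781% had the 4 Sept arrays entirely above the 4 Dec arrays and 1.09% entirely below. The difference was 3.35 (SE 0.62), or 10.2-fold, with an adjusted p of 1.00, and it stayed between 2.503 and 4.20 when any one pool pair was left out. It did not pass the thresholds in what is called here the methods' t-test over pool pairs. That is a t-test of the kind the study used, but set here between the lots, whereas the study compared small with large fish. It takes the spread from the 4 pool pairs of each probe alone.

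A pair of genes of thiol chemistry followed. Thioredoxin, which reduces disulfides in proteins, read −0.22, 1.51, 2.34 and 3.06 on the Sept arrays and −0.61, 0.82, −2.36 and −0.57 on the Dec arrays. The difference was 2.35 (SE 0.83), and the groups overlapped, since Sept pool pair 1 lay near Dec pool pair 1 (0.65 and 0.10) while the second pool pairs were far apart (2.70 and −1.46). The P-class glutathione S-transferase, a detoxifying enzyme that conjugates electrophiles, had pool pair means of 1.81 and 2.66 in the Sept lot and 1.39 and −0.42 in the Dec lot. Its difference of 1.75 (SE 0.65) was carried most by Dec pool pair 2, and a second probe of the same name differed by 1.02 (SE 0.55) without passing the thresholds. Neither thioredoxin nor this transferase passed without Sept pool pair 2, without Dec pool pair 2, or when probes with a value on at least 1 array of each pool pair were admitted.

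Thymosin beta-a, which belongs to a family of actin monomer binders, read 0.89, 1.04, 0.81 and 1.67 against −0.86, 0.83, −1.60 and −0.58. The ranges met only at 1 Dec array, at 0.83, and the difference was 1.65 (SE 0.39). Rab-10, a small GTPase of vesicle transport, read 0.91, 0.92, 1.60 and 1.21 in the Sept lot and −0.16, 0.78, −0.70 and −1.67 in the Dec lot. Here the arrays of the lots did not overlap, and the difference was 1.59 (SE 0.52).

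Purine nucleoside phosphorylase, retinoblastoma binding protein 9 and the probe named transducer of 1 had separate arrays in the 2 lots. The phosphorylase, which splits nucleosides in purine salvage, read −0.17, 0.54, 0.68 and 1.22 against −1.06, −0.45, −0.88 and −0.92, a difference of 1.39 (SE 0.30). The binding protein, a serine hydrolase, had pool pair means of 1.09 and 0.58 against −0.48 and −0.28, a difference of 1.22 (SE 0.24). Transducer of 1 read 0.24, 0.41, 0.54 and 0.41 against −0.78, −0.36, −0.97 and −1.10. Its Sept arrays lay within a narrow band above 0 and its Dec arrays were all below 0, with a difference of 1.205 (SE 0.23).

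The remaining 4 of the 12 largest positive differences were less even. The zinc transporter ZIP3, which imports zinc, had pool pair means of −0.05 and −0.41 in the Sept lot and −0.89 and −1.96 in the Dec lot, a difference of 1.19 (SE 0.39). RNA-binding protein 28, a nucleolar protein of ribosome assembly, had means of 0.87 and 1.45 against 0.07 and 0.01, a difference of 1.12 (SE 0.25). For both, the arrays of the lots overlapped although the pool pairs did not. The difference of 1.91 (SE 0.61) for mps one binder (mob) kinase activator-like 1b, a co-activator of growth-restraining kinases, rested largely on 1 Dec array at −5.51, while its dye flip read 0.80. That of 1.74 (SE 0.48) for terf1-interacting nuclear factor 2, a telomere protein, rested largely on 1 Sept array at 4.67, while its dye flip read 0.51.

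**Figure D3:**
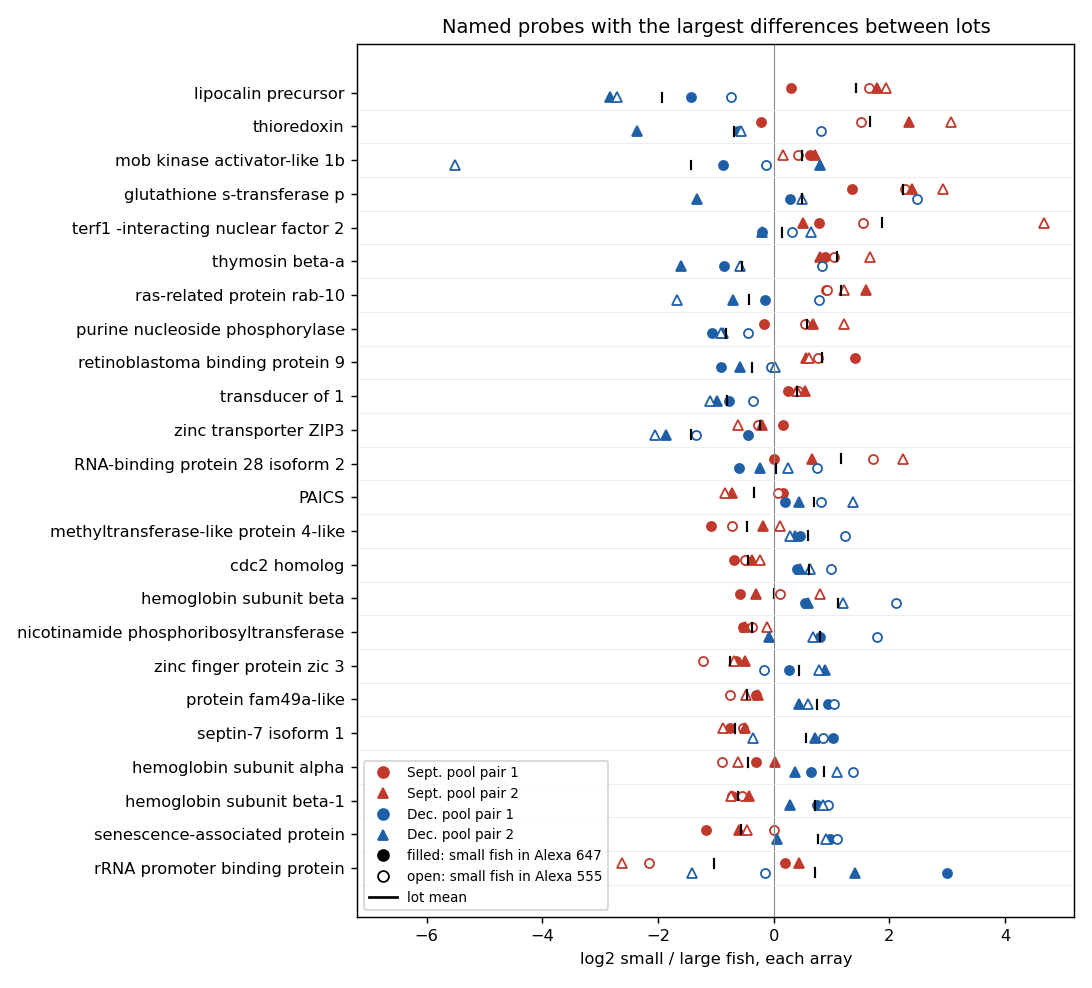
Log2 ratio of small over large fish on each of the 8 arrays for the 12 named probes with the largest and the 12 with the smallest difference past the thresholds, red for Sept and blue for Dec arrays, circles for pool pair 1, triangles for pool pair 2, filled where small fish carried Alexa Fluor 647 and open where they carried Alexa Fluor 555; black ticks are lot means. The 4 Sept and 4 Dec arrays do not overlap for 15 of these 24 probes, which were chosen for large differences, against 1.87% of all probes. Single arrays at −5.51 (mob kinase activator-like 1b) and 4.67 (terf1-interacting nuclear factor 2) stand far from the rest.

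In the opposite direction, hemoglobin made up the most uniform group. Of 14 tested probes for hemoglobin and other red blood cell genes, 10 were lower in the Sept contrast past the thresholds and 0 were higher. The background for lower calls was 1.52% over all probes. That share does not serve for liver-table probes, which made up 9 of these 14. Of all tested liver-table probes, 33.2% were past the thresholds in either direction. The list's median difference was −1.08, against −0.01 over all probes. Of the 10 probes 8 were in the liver tables, and the 5 tested probes outside them had a median of −0.15. Hemoglobin beta-1 (A_05_P453042) read −0.72, −0.55, −0.43 and −0.74 on the Sept arrays and 0.75, 0.94, 0.28 and 0.86 on the Dec arrays. Hemoglobin alpha (A_05_P480657) read −0.31, −0.89, 0.03 and −0.62 against 0.64, 1.37, 0.37 and 1.10. In both cases every Dec array stood above every Sept array.

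Over the 10 probes, pool pair values ran from −0.72 to 0.25 in the Sept lot and from 0.41 to 1.33 in the Dec lot. They included band 3, the chloride and bicarbonate transporter of red blood cells, with pool pair means of −0.22 and −0.20 against 0.54 and 0.61. Of the 5 probes outside the liver tables, a second hemoglobin beta-1 probe differed by −1.15 (SE 0.20) and a platform hba probe by −0.83 (SE 0.21). The remaining alpha probe of the liver tables gave −1.002 (SE 0.51) and did not pass, with Dec pool pairs at 1.14 and −0.36. The other 3 probes outside the tables gave −0.15 for hemoglobin beta, −0.09 for another hba probe and 0.04 for 5-aminolevulinate synthase, and were not past the thresholds. Globin probes read the same RNA pools and are not separate measurements. No probe sequences were at hand, so how far they target the same copies is unknown. In bulk liver, a difference in the share of blood and one in RNA per blood cell cannot be told apart. The ratios also do not say in which lot or size class it arose.

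The median of the red blood cell list was larger where small fish carried Alexa Fluor 555 (−1.41) than where they carried Alexa Fluor 647 (−0.69), with the same sign. It was −0.48 and −0.26 in the Sept pool pairs and 0.66 and 0.61 in the Dec pool pairs. White blood cell markers, 10 of 19 of them in the liver tables, showed no common direction, with 3 of 19 probes higher, 2 lower and a median of 0.04. CD22 and lck, of B and T lymphocytes, differed by 0.84 (SE 0.22) and 0.65 (SE 0.24), whereas the B-cell kinase btk and integrin alpha-X differed by −0.74 (SE 0.25) and −0.66 (SE 0.22).

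The largest negative difference past the thresholds was that of the probe named rRNA promoter binding protein, the only one of the 24 probes in the plot of single arrays from outside the liver tables. It read 0.19, −2.16, 0.45 and −2.63 on the Sept arrays and 2.998, −0.15, 1.40 and −1.42 on the Dec arrays. Every Alexa Fluor 647 array stood at least 2 log2 units above its dye flip, so the lots overlapped on single arrays, and the difference of −1.75 (SE 0.48) appeared only between arrays of equal orientation (−1.88 and −1.61). The probe named senescence-associated protein read −1.17, 0.00, −0.61 and −0.46 against 0.98, 1.09, 0.06 and 0.90, without overlap, a difference of −1.32 (SE 0.24). All 3 probes of that name lay between −1.44 and −1.21, and 2 of them were past the thresholds.

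Single genes of cell division were also lower, while the list as a whole had a median near 0. The cdc2 homolog, the kinase that drives entry into mitosis, read −0.68, −0.50, −0.37 and −0.23 in the Sept lot and 0.40, 1.00, 0.45 and 0.63 in the Dec lot. The lots had opposite signs on every array, and the difference was −1.06 (SE 0.19). Septin-7, a filament protein that is needed for cytokinesis, read −0.75, −0.54, −0.49 and −0.87 against 1.02, 0.85, 0.72 and −0.35, a difference of −1.22 (SE 0.29). Cyclin-dependent kinase inhibitor 3 differed by −0.76 (SE 0.19). With transducer of 1 higher, the list had 1 of 21 probes higher, 3 lower and a median of −0.04, with 13 members below 0 and 8 above it.

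Nicotinamide phosphoribosyltransferase, which makes NAD from nicotinamide, read −0.53, −0.38, −0.50 and −0.12 against 0.80, 1.79, −0.08 and 0.67, a difference of −1.18 (SE 0.36). The bifunctional enzyme of purine synthesis listed as phosphoribosylaminoimidazole succinocarboxamide synthetase (PAICS) had pool pair means of 0.11 and −0.78 against 0.50 and 0.90, a difference of −1.04 (SE 0.35). In both enzymes the arrays of the lots were separate by a small margin.

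The list of 12 ended with genes whose role in liver is less settled. Protein fam49a-like read −0.30, −0.76, −0.27 and −0.49 against 0.95, 1.05, 0.44 and 0.59, with opposite signs throughout and a difference of −1.21 (SE 0.23). Zic 3, a zinc finger transcription factor, had pool pair means of −0.93 and −0.59 against 0.05 and 0.83, a difference of −1.21 (SE 0.32). Methyltransferase-like protein 4 had −0.90 and −0.04 against 0.85 and 0.33, a difference of −1.06 (SE 0.36). A hemoglobin beta probe (A_05_P488772) completed the set at −1.10 (SE 0.26), its Sept arrays reaching 0.81 and its Dec arrays starting at 0.54.

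Whether these 24 probes kept their call differed between settings. The share of all probes past the thresholds that kept their call in every setting was not counted. These 24 were chosen for large differences on the same arrays, mostly from the liver tables (23 of 24). The settings only reprocess their values, so a kept call is no further evidence of a difference. Leaving out 1 pool pair ended the call of 11 of them, and 17 did not pass the methods' t-test over pool pairs. ZIP3 and PAICS did not pass after quantile normalization. In every setting run for single probes except the turned sign of one dye orientation, 6 kept their call, namely retinoblastoma binding protein 9, transducer of 1, senescence-associated protein, hemoglobin beta-1, fam49a-like and the cdc2 homolog.

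The 26 gene lists had 58 probes past the thresholds among 447 tested, 48 of them in the liver tables, and 8 lists had none. Of the 319 list probes outside the liver tables, 10 were past, where the share of all probes outside them was 2.85%. For the counts of single lists, the shares over all probes were 1.93% higher and 1.52% lower. These shares do not serve for list members in the liver tables, since 33.2% of all tested liver-table probes passed in either direction. Such members made up 11 of 24 immediate-early, 10 of 19 white blood cell and 9 of 23 respiratory chain probes, for example. Counts of lists with many such members are therefore not read as above background. Since the liver-table probes were selected on these arrays, list medians lean on them, and in 5 lists the median had the other sign without them. In 14 lists the medians of the 2 dye orientations had opposite signs. Away from hemoglobin, list medians ran from −0.15 to 0.40. The highest belonged to fatty acid synthesis, with 2 of 8 probes higher past the thresholds, 0 lower and a median of 0.40, which was 0.14 over the 5 probes outside the liver tables. The delta-6 desaturase fadsd6, which introduces double bonds in making long-chain polyunsaturated fatty acids, had pool pair means of 0.38 and 0.45 against −0.14 and −0.22, a difference of 0.59 (SE 0.17) for a probe outside the liver tables. Elongase 1 (elongation of very long chain fatty acids protein 1) differed by 0.46 (SE 0.17). NADP-dependent malic enzyme, which supplies reducing power for lipid synthesis, gave 0.84 (SE 0.41) and was not past the thresholds.

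Plasma protein genes had 3 of 20 probes higher, 0 lower and a median of 0.25. Both probes of the warm temperature acclimation-related protein, a hemopexin-like plasma protein of teleosts, were higher and lay outside the liver tables, with pool pair means of −0.22 and −0.26 against −0.89 and −1.30 for the first and −0.05 and −0.15 against −0.69 and −0.79 for the second. Serum albumin, the main carrier protein, read 0.10, 0.28, 0.61 and 0.19 against −1.14, −0.69, −0.05 and −0.16. The albumin arrays of the lots were separate, and its difference was 0.80 (SE 0.31), while a second albumin probe gave 0.30 without passing. Complement and acute phase genes had 2 of 18 higher, 0 lower and a median of 0.27, with 0.44 (SE 0.17) for a C1r/C1s-like subunit. The difference of that subunit came from one dye orientation, at 0.86 with small fish in Alexa Fluor 647 and 0.03 with small fish in Alexa Fluor 555. Lipid carriers had 0 of 11 past the thresholds and a median of 0.19.

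The medians of plasma protein, complement and lipid carrier genes were above 0.4 in one dye orientation and near or below 0 in the other. With small fish in Alexa Fluor 647, the medians were 0.56 for plasma proteins, 0.43 for complement and acute phase genes and 0.49 for lipid carriers. With small fish in Alexa Fluor 555, they were −0.03, 0.03 and −0.11. For fatty acid synthesis the medians were 0.50 and 0.27, both above 0.

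**Figure D4:**
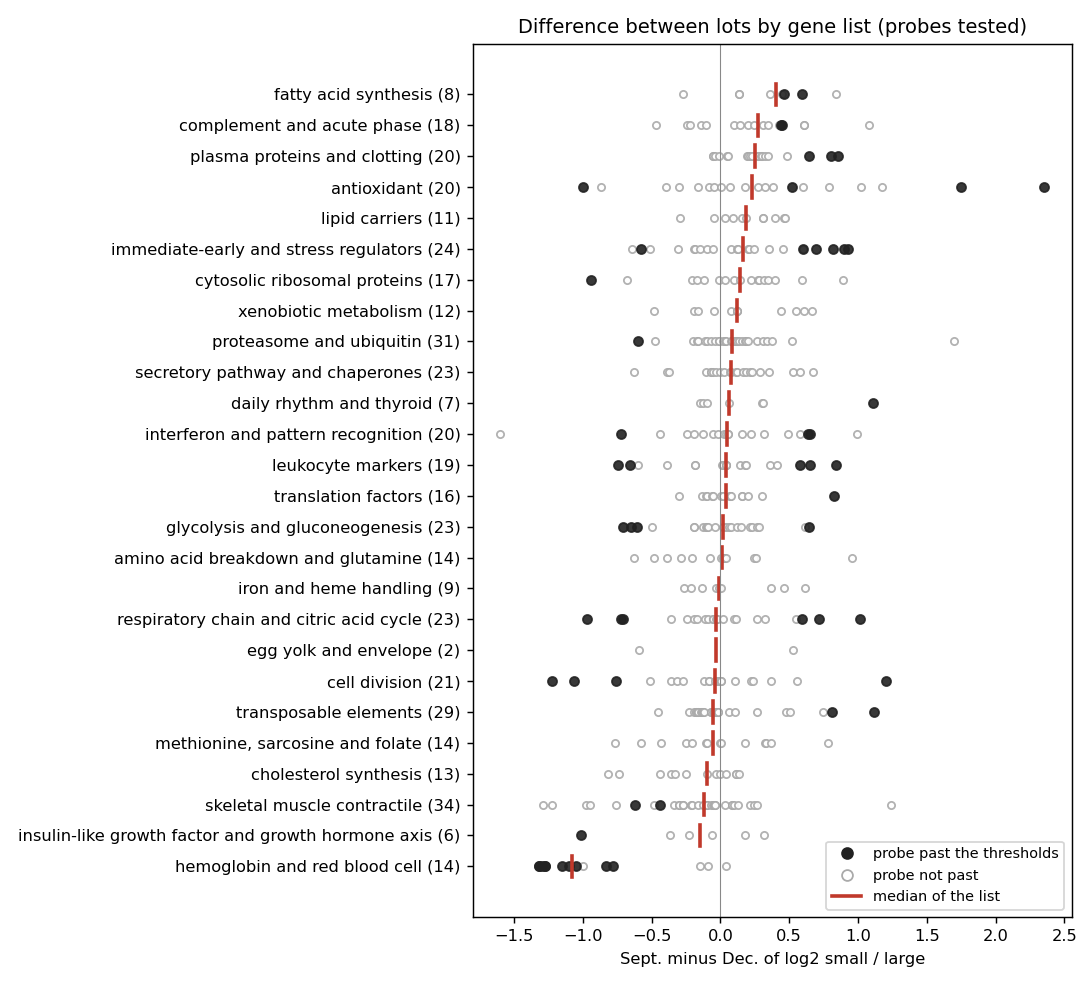
Difference between lots (Sept minus Dec of log2 small over large) for every tested probe of 26 gene lists, with the number of probes tested after each name, filled where a probe was past the thresholds and open where it was not; red bars are list medians. Red blood cell genes stand apart at a median of −1.08, and the other medians lie between −0.15 and 0.40.

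Immediate-early and stress regulators had 5 of 24 probes higher, 1 lower and a median of 0.16, but the 13 probes outside the liver tables had a median of −0.053. The transcription factor jun-b, an early response gene, read 0.31, 0.98, 0.37 and 1.25 against −1.04, 0.73, −0.86 and 0.38, a difference of 0.92 (SE 0.18). The arrays of the lots overlapped, since 2 Dec arrays with small fish in Alexa Fluor 555 stood above the 2 Sept arrays with small fish in Alexa Fluor 647. A second jun-b probe differed by 0.35 and was not past the thresholds. Butyrate response factor 1, which promotes decay of short-lived mRNAs, nf-kappa-b p105 and the kinase pim-1 differed by 0.90 (SE 0.34), 0.82 (SE 0.24) and 0.70 (SE 0.20). For nf-kappa-b p105 the dye orientations had opposite signs, at 1.78 with small fish in Alexa Fluor 647 and −0.15 with small fish in Alexa Fluor 555. The inhibitor of DNA binding id-1 was the lower one, at −0.58 (SE 0.17).

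Of the genes that respond to temperature and day length, cold inducible RNA binding protein read 1.90, 0.86, 0.13 and 0.32 against −0.89, 0.02, −0.29 and −0.04. The arrays of the lots were separate, and the difference was 1.11 (SE 0.41), with Sept pool pair 1 at 1.38 and pool pair 2 at 0.23. The other 6 probes of the daily rhythm and thyroid list were not past the thresholds, among them period homolog 1 at 0.30 (SE 0.19) and type I deiodinase, which activates thyroid hormone, at 0.31 (SE 0.32).

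Energy metabolism split within its lists. In the respiratory chain and citric acid cycle, 3 of 23 probes were higher and 3 lower, with a median of −0.03. Isocitrate dehydrogenase and a mitochondrial aconitase differed in opposite directions, with pool pair means of 0.95 and 0.30 against −0.48 and −0.30 for the former and 0.38 and −0.16 against 1.11 and 1.04 for the latter. The name of the former does not say whether its probe reads a form of the citric acid cycle. Their differences were 1.02 (SE 0.27) and −0.97 (SE 0.24). In glycolysis and gluconeogenesis, 1 of 23 was higher and 3 lower, with a median of 0.02. Enolase 3-2, lactate dehydrogenase B and phosphoglycerate mutase 1 were lower, by −0.71 (SE 0.20), −0.65 (SE 0.25) and −0.61 (SE 0.19), and the regulatory kinase 6-phosphofructo-2-kinase was higher by 0.64 (SE 0.21). The enolase 3-2 difference was −0.11 with small fish in Alexa Fluor 647 and −1.30 with small fish in Alexa Fluor 555. Each of the 3 lower enzymes had another probe of the same name above 0, at 0.62, 0.15 and 0.08, and another enolase 3-2 probe gave −0.13.

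In the antioxidant list, beside thioredoxin and glutathione S-transferase P, glutathione synthetase was higher by 0.52 (SE 0.19) and 1 glutathione peroxidase probe lower by −0.997 (SE 0.27). That left 3 of 20 higher, 1 lower and a median of 0.23, with 0.39 where small fish carried Alexa Fluor 647 and 0.085 where they carried Alexa Fluor 555. The glutathione synthetase difference was 1.01 in the former orientation and 0.02 in the latter. Probes named glutathione peroxidase 3 differed by −0.08 and 1.18 and were not past the thresholds. In the interferon and pattern recognition list, 2 of 20 were higher and 1 lower, with a median of 0.05. NLRC3 differed by 0.65 (SE 0.24) and the toll-interacting protein, a brake on toll-like receptor signalling, by −0.73 (SE 0.18), each with separate arrays. Transposable element probes had 2 of 29 higher and a median of −0.05, led by the transposase-derived harbi1-like nuclease at 1.11 (SE 0.23). Other harbi1-like probes gave 0.50 (SE 0.25) and 0.48 (SE 0.27) and were not past the thresholds.

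Lists without a probe past the thresholds held 2 to 23 tested probes. At the background of 3.45%, none or 1 call would be usual, so counts of 0 say little for lists largely outside the liver tables. That background does not serve for probes in the liver tables, of which 33.2% passed. They made up 12 of the 13 in cholesterol synthesis and a smaller part of the other lists without a call. Cholesterol synthesis had 0 of 13 and a median of −0.10, with squalene monooxygenase at −0.82 (SE 0.33). Its list medians in the pool pairs were 0.66 and 0.24 in the Sept lot and 0.27 and 1.09 in the Dec lot, so the spread within each lot exceeded the difference. Methionine, sarcosine and folate metabolism had 0 of 14 and a median of −0.05, amino acid breakdown 0 of 14 and 0.01, xenobiotic metabolism 0 of 12 and 0.12, and the secretory pathway and chaperones 0 of 23 and 0.08. Iron handling (0 of 9) and egg proteins (0 of 2) also had none. A pair of cyp1a probes, for the main inducible oxidase of aromatic pollutants, gave 0.66 (SE 0.36) and 0.60 (SE 0.45).

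Machinery of protein synthesis and turnover was nearly level. Cytosolic ribosomal proteins had 0 of 17 higher and 1 lower, with a median of 0.14, the exception being ribosomal protein S13 at −0.94 (SE 0.21). Translation factors had 1 of 16 higher, initiation factor 5B at 0.83 (SE 0.23), and a median of 0.04. Proteasome and ubiquitin genes had 0 of 31 higher and 1 lower, ubiquitin-conjugating enzyme e2 variant 1 at −0.60 (SE 0.21), and a median of 0.08. Proteasome activator complex subunit 3 gave 1.70 (SE 0.70) without passing, with 1 Sept array at 3.87.

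Contractile genes of skeletal muscle had 0 of 34 higher and 2 lower, with a median of −0.12. In Dec pool pair 1, 5 of these probes read between 1.95 and 2.40, whereas the same probes read between −2.18 and 0.46 in the other 3 pool pairs. Their part in the other differences was not tested. Without that pool pair, the median of the list was −0.11.

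**Figure D5:**
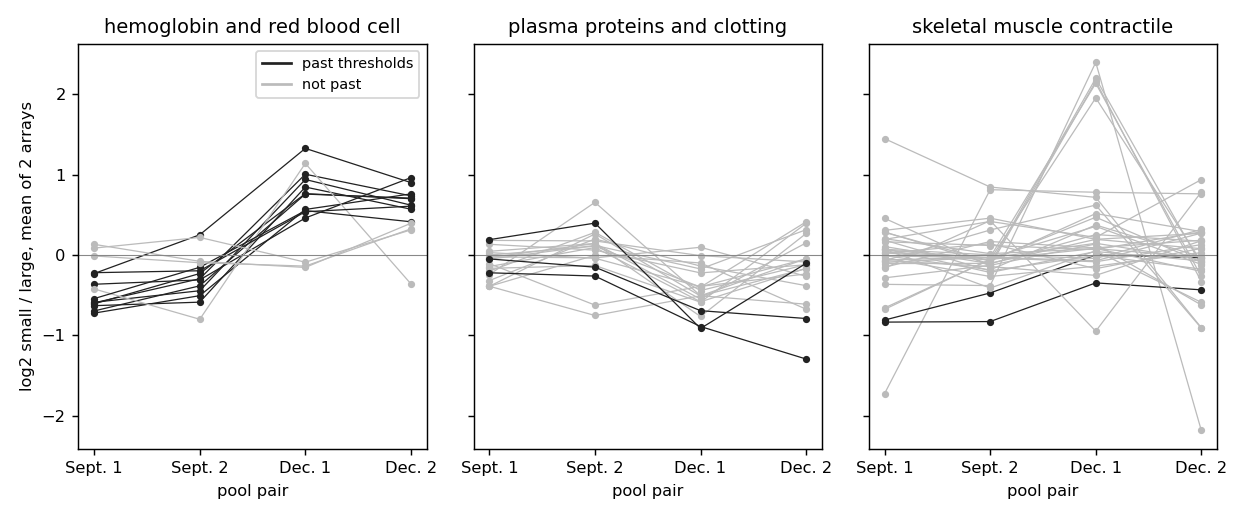
Log2 ratio of small over large fish in each pool pair (mean of 2 arrays) for the probes of 3 lists, 1 line per probe, black where the difference between lots was past the thresholds. The 10 red blood cell probes in black lie lower in both Sept pool pairs than in both Dec pool pairs, the plasma protein median is lowest in Dec pool pair 1 at −0.48, and 5 muscle probes rise to between 1.95 and 2.40 in Dec pool pair 1 alone.

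A few further genes that the study discussed for liver were read on their tested probes. Insulin-like growth factor binding protein 1, which sequesters the growth factor and rises in fasting and stress, read 0.17, 0.67, 0.67 and 1.28 in the Sept lot and 1.10, 2.09, 1.73 and 1.92 in the Dec lot on one probe (A_05_P489857). Small fish stood above large fish in both lots, and the difference of −1.01 (SE 0.25) was one of size, past the thresholds. The other probe (A_05_P249019) differed by −0.23 (SE 0.24). In the growth axis list, 1 of 6 probes was past the thresholds and the median was −0.15. The median was −0.28 and −0.03 in the 2 dye orientations and 0.056 over the 4 probes that are not for binding protein 1.

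Polycystic kidney disease protein 1-like 3 had probes that did not move together. One (A_05_P488952) read −0.33, −0.55, −0.01 and −0.64 against −0.65, −0.96, −2.13 and −2.07, a difference of 1.07 (SE 0.44) that was not past the thresholds although the arrays did not overlap. The other (A_05_P299292) differed by −0.09 (SE 0.23). The 4 glutamine synthetase probes, for the enzyme that fixes ammonia as glutamine, differed by −0.63 (SE 0.26), −0.48 (SE 0.24), −0.39 (SE 0.20) and 0.02 (SE 0.26), none past the thresholds. Sec61, the channel for secreted proteins, gave −0.07 (SE 0.17) for the alpha and 0.03 (SE 0.39) for the gamma subunit. Complement C1q-like protein 4 had pool pair means of −1.39 and −1.78 against 0.83 and −3.06, so the Dec pool pairs stood on either side of the Sept ones, and its difference was −0.47 (SE 1.24), while a second probe (A_05_P388222) gave −0.25 (SE 0.19).

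Names carried by several probes showed how far probes of the same name went together. Such probes read the same RNA pools, and many were named in the liver tables, so they do not repeat the difference between lots. Of all named probes, 10.8% were past the thresholds. Of 117 names with at least 2 tested probes, 27 had a probe past the thresholds, 5 had at least 2 past in the same direction, and 0 had probes past in opposite directions. The 5 were hemoglobin alpha, hemoglobin beta, hemoglobin beta-1, senescence-associated protein and the warm temperature acclimation-related protein. For hemoglobin beta-1 and the last of these, all probes were past the thresholds.

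The 2 largest positive differences among unnamed probes past the thresholds were both 2.41. A_05_P449492 read 0.53, 0.10, 0.76 and 0.61 against −0.34, −1.58, −2.18 and −3.56 (SE 0.63). A_05_P281457 read 0.22, −0.23, 0.15 and −0.34 against 0.05, −3.01, −3.55 and −3.33 (SE 0.64). In both, the Sept lot stayed near 0 and most Dec arrays fell well below it. The 2 largest negative differences were −2.10 (SE 0.35) for A_05_P369272 and −1.87 (SE 0.51) for A_05_P412242. A_05_P369272 read 0.34, −2.61, 0.66 and −2.84 against 3.19, −0.23, 1.55 and −0.55, the same dye pattern as the rRNA promoter binding protein probe.

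The largest difference of any probe, past the thresholds or not, shows how far pools of 1 lot could diverge. Nattectin (A_05_P490962), a lectin-like protein named from a fish venom, read −4.84, −4.41, 6.39 and 6.19 on the Sept arrays and −1.37, −3.85, −3.32 and −1.83 on the Dec arrays. Dye flips stood on the same side of 0, but the 2 Sept pool pairs had opposite signs, at −4.62 and 6.29. The difference of 3.43 had an SE of 3.45, and the gene was chosen here after its values were seen. Without Sept pool pair 1 it was the 1 probe with an adjusted p under 0.05 (limma, 0.0349), with a difference of 8.89.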

How the data were processed

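Liver mRNA pools of small and large trout were co-hybridised to 8 arrays. The authors extracted spot intensities, left out spots with low signal ratios, applied lowess normalization within and across arrays and deposited log2 ratios, which the direction of their liver tables shows to be small over large: 530 of 530 tested probes listed for the Sept lot and 146 of 146 for the Dec lot had the sign that fits. No raw intensity was used, so background and saturation are unknown, and the number of arrays limits the precision. The 60 control rows were left out. Empty values numbered 1685 to 6849 probes per array, and 33291 probes had none. No 2 arrays were identical.

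The 2 arrays of a pool pair were averaged, and lots were compared with lmFit and eBayes of limma 3.58.1 in R 4.3.3, without trend or robust options, with Benjamini-Hochberg adjustment over all 33291 probes. The residual degrees of freedom were 2 and the prior degrees of freedom 3.03. The thresholds were an unadjusted p of 0.05 and a fold of 1.2. The pools are separate groups of fish of the same families, and p-values measure the spread between these pools. Scripts were tested on made-up data with known differences. The members and the 26 gene lists were chosen with earlier results of these data known.

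Named genes were the 12 largest and 12 smallest differences past the thresholds among probes with a usable name and the same sign in both dye orientations (each name once). From the gene lists, mostly members past the thresholds were named, which were not always the largest of their list, and some lists have no member named. Also named were 6 genes the paper discusses for liver (insulin-like growth factor binding protein 1, lipocalin, polycystic kidney disease protein 1-like 3, glutamine synthetase, sec61 and complement C1q-like protein 4), and at most 2 unnamed probes per direction. Names came from 221 platform symbols, 104 of them placeholders, and from 398 liver-table and 940 muscle-table probes. None of the platform accessions occurred in the trout gene table at hand. Columns of fold changes and p-values in the study's tables were not used. Alternatives were other tests, a dye term, centring, quantile normalization, single dye orientations, another filter, other fold thresholds, the pool pair number as a block, and leaving out each pool pair. Turned signs of one dye orientation were run as a wrong-sign comparison. Python 3.11.15 served for summaries and plots.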

Additional observations from a re-analysis of the deposited data

Results flagged for a closer look

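Of 132 groups of 4 arrays examined (66 results in 2 lots), 3 had 1 array far from the other 3, where chance gives about 1 in 20. For glutamine synthetase (A_05_P278117), the Sept array of pool pair 1 with small fish in Alexa Fluor 555 read 0.14. For the unnamed probe A_05_P281457, the Dec array of pool pair 1 with small fish in Alexa Fluor 647 read 0.047 while the other Dec arrays were at −3.01 or lower. The median of the cell division list was 0.31 on that same Dec array.

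For 7 results all 4 Sept arrays lay on one side of 0 and all 4 Dec arrays on the other. These were lipocalin (difference 3.35), transducer of 1 (1.205), hemoglobin beta-1 (−1.32), fam49a-like (−1.21), the cdc2 homolog (−1.06), the unnamed probe A_05_P449492 (2.41) and the mean over arrays of the red blood cell list's medians (−1.06). The difference between lots was tested for each of the 6 single probes, and its adjusted p was 1.00 in limma, so it does not hold after adjustment. For the list it was not tested. The 6 single probes had been chosen for large differences, and the share of all probes with this pattern was not counted. It cannot exceed the 1.87% of all probes whose 4 Sept arrays lay entirely above or entirely below the 4 Dec arrays.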

How the results depend on the processing

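With 2 pool pairs per lot, all counts are imprecise. The 1149 probes past the thresholds became 1735 when the sign of the arrays with small fish in Alexa Fluor 555 was turned, and 593 to 3637 when 1 pool pair was left out. Turning that sign sets the dye orientations against each other. It does not measure the size effect, whose direction the study's liver tables fix, and serves only as a wrong-sign comparison. Probes with an adjusted p under 0.05 numbered 0 in every setting except without Sept pool pair 1 (range 0 to 1). The 151 named probes became 74 with the methods' t-test over pool pairs (811 probes in all, smallest adjusted p 0.281), 93 on the arrays with small fish in Alexa Fluor 555, 81 with the sign turned and 64 to 275 without 1 pool pair. The share of calls higher in the Sept lot, 56.0% (95% Wilson interval 53.2 to 58.9), was 42.0% with the methods' t-test over arrays, 46.1% with that over pool pairs, 53.0% with a dye term and pool pair as random block, 62.2% after median centring (711 higher, 433 lower), 48.9% on the Alexa Fluor 555 arrays, 60.3% at a fold of 1.5, and 54.1 to 65.8% without 1 pool pair. The Wilson interval takes probes as independent, which they are not, and leaves out the spread between pools. It therefore does not give the precision of the share. With the pool pair number as a replicate block, 1284 probes were past the thresholds and the share was 60.5%. The numbers pair no fish, and same-numbered pool pairs deviated together with a correlation of 0.03.

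Turning the sign of those arrays reversed 25 of 40 named differences: lipocalin to −0.17, mps one binder to −1.20, terf1-interacting factor to −0.89, purine nucleoside phosphorylase to −0.17, ZIP3 to −0.056, RNA-binding protein 28 to −0.36, hemoglobin beta-1, alpha and beta to 0.23, 0.67 and 0.091, fam49a-like to 0.24, zic 3 to 0.058, nicotinamide phosphoribosyltransferase to 0.30, cdc2 to 0.12, methyltransferase-like protein 4 to 0.010, the purine synthesis enzyme to 0.44, IGFBP1 (A_05_P489857) to 0.016, PKD1L3 (A_05_P299292) to 0.068, glutamine synthetase to 0.10, 0.033 and 0.49, C1q-like protein 4 to 0.099, and unnamed probes to −0.47, −0.51, 0.23 and 0.54. The values with turned sign contrast the dye orientations, so these reversals do not bear on the direction of the size effect. Of differences not past the thresholds, glutamine synthetase was −0.19 (A_05_P278117) on Alexa Fluor 555 and 0.10 (A_05_P429307) on Alexa Fluor 647 arrays, and sec61 gamma −0.041 on Alexa Fluor 555 arrays. Without 1 pool pair, ranges crossed 0 for IGFBP1 (A_05_P249019, −0.50 to 0.040), PKD1L3 (A_05_P299292, −0.33 to 0.15), glutamine synthetase (A_05_P278117, −0.30 to 0.34), sec61 alpha (−0.15 to 0.0015), sec61 gamma (−0.51 to 0.56) and C1q-like protein 4 (A_05_P332842, −2.41 to 1.47). In all other settings the 40 named differences kept their direction. Under the other tests, the dye term, the pool pair number as a block and the other value filter, these differences cannot change. Their direction is thus no check there. Nor is it without 1 pool pair, where all 1149 probes past the thresholds kept their sign. Calls were lost under the methods' t-test over pool pairs (22, lipocalin among them) and over arrays (7). On the Alexa Fluor 647 and 555 arrays, 7 and 6 were lost. Quantile normalization (ZIP3, PAICS) and the other value filter (thioredoxin, glutathione S-transferase P) lost 2 each, and a dye term lost 1 (mps one binder).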
